A study of Bos taurus and other sequences with 9 samples.

Results

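U2 is the small nuclear RNA (snRNA) of the spliceosome that pairs with the branch point of an intron. Its loci were examined among the small non-coding RNAs of extracellular vesicle (EV) preparations from cell culture media. A row of the deposited table was taken as a U2 locus when its type was snRNA and its name began with RNU2- or with U2 followed by a dot or a hyphen. This gave 48 loci among 419 snRNA loci and 1361 loci of small non-coding RNAs other than miRNAs. Of the 48 loci, 6 were named RNU2- and 42 were named U2 with a number, and the transcript suffix that ends each name in the table is left out here.

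Small RNA sequencing with unique molecular indices was performed on 9 samples of 5 media, of which 4 were based on fetal bovine serum and held 2 samples each, whereas StemPRO, a defined serum-free and xeno-free medium for mesenchymal stem cells, had 1. FBS was medium with complete serum, and UC-dFBS was medium with serum depleted of EVs by ultracentrifugation. UF-dFBS was medium with serum depleted by ultrafiltration, and SBI-dFBS was medium with a commercial exosome-depleted serum of System Biosciences. The serum was a minor part of each of these media, at the same percentage, so levels are not those of undiluted serum. All FBS-based media shared the same basal medium and carried penicillin and streptomycin, and no cells were cultured in any of them. Sample 1 of FBS, UC-dFBS and UF-dFBS held Sigma-Aldrich serum and sample 2 held Gibco serum, whereas the samples of SBI-dFBS were separate lots. The SD of a medium therefore contains the difference between sera or lots, and p-values measure only the spread between these samples.

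The U2 snRNP binds the branch point after U1 has recognized the 5′ splice site, and the U4/U6·U5 tri-snRNP then joins to form the catalytic spliceosome. In the minor spliceosome, U11 and U12 take the places of U1 and U2. Mammalian genomes hold functional U2 genes and many U2 pseudogenes, which are copies of the RNA inserted elsewhere. U2 RNA itself is abundant and mostly nuclear, and fragments of it are regularly found in small RNA libraries of EVs and blood.

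The 48 loci lay on 20 chromosomes of human GRCh37, the build of the deposited table, to which the reads of the bovine sera had been mapped. Their annotated spans ranged from 79 to 212 bases with a median of 190, and 14 loci had the span of RNU2-2, 191 bases. The 10 loci with the highest mean level spanned 177 to 192 bases, and none of the 10 loci shorter than 150 bases was among them. The name RNU2-2 occurred in the table once, at chr11:62609091-62609281 on the minus strand. No U2 locus was named RNU2-1, the other well-known functional U2 gene, so the summed level holds no row of that name. The loci are annotated as copies of the same RNA, and the methods do not state how reads with several equally good positions were placed. The value of a single locus is therefore uncertain. The sum over the 48 loci does not depend on which of them a read was given to. This holds only if each read was counted once, which is not stated either.

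The counts of miRNAs and other small non-coding RNAs together were 6679 in StemPRO, 82513 in UF-dFBS-2 and up to 6867736 in the others. Reads that mapped elsewhere are not in these sums. Levels are given as spike-in normalized counts, the authors' values relative to RNAs added to each sample, where 1 normalized count stood for 3.78 to 108 counts. The limit that a count of 0 allows, 3 counts, thus lay between 0.0278 normalized counts in StemPRO and 0.794 in SBI-dFBS-2. Intervals and limits cover counting error only. Of the 48 loci, 21 never passed 3 counts in any sample, 27 did so, and 14 passed 1 normalized count in at least 1 sample. A total of 20 loci had at most 5 counts in all 9 samples together.

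U2 counts were found in every medium, with similar levels in FBS and SBI-dFBS, a lower level in UC-dFBS and far lower ones in UF-dFBS and StemPRO. FBS-1 had a summed level over the 48 loci of 174 normalized counts, and FBS-2 had 135. The lots of SBI-dFBS had 122 and 129, and the UC-dFBS samples had 72.8 and 87.4. Both SBI-dFBS values lay below both FBS values, and both UC-dFBS values lay below all 4 of these. UF-dFBS-1 had 4.45 and UF-dFBS-2 had 2.62 normalized counts, and StemPRO had 1.66 with an exact Poisson 95% interval of 1.42 to 1.92. The UF-dFBS samples and StemPRO did not overlap with any other medium, and these sums rested on 246, 63 and 179 counts, against 476 to 1106 counts in the 6 other samples. No blank library was among the samples, so background of the method could not be told apart from U2 in StemPRO. For the miRNA reads of StemPRO, the paper proposes that a part may be experimental noise.

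**Figure D1:**
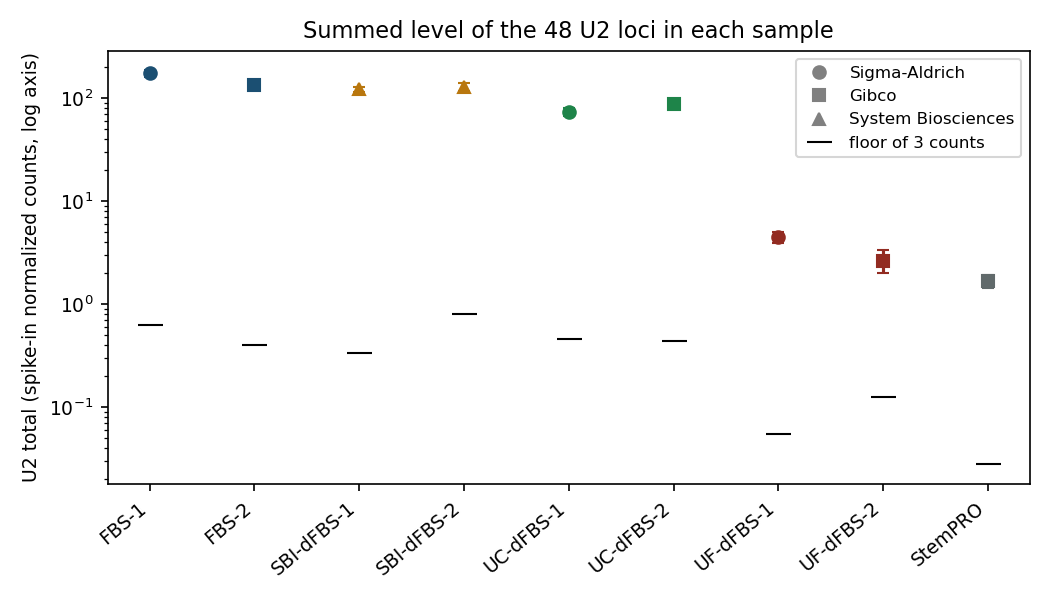
Summed level of the 48 U2 loci in spike-in normalized counts (log axis) for each of the 9 samples, with exact Poisson 95% intervals as bars, the serum supplier as the symbol shape and black dashes at the level of 3 counts. FBS, SBI-dFBS and UC-dFBS lie between 72.8 and 174, UF-dFBS at 4.45 and 2.62, and StemPRO at 1.66.

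The mean U2 level was 155 ± 27.1 normalized counts in FBS and 126 ± 4.70 in SBI-dFBS (SD, n = 2 each). SBI-dFBS thus had 81.2% of FBS, as a ratio of 0.812 ± 0.146. UC-dFBS had 80.1 ± 10.3 (SD, n = 2), a ratio of 0.518 ± 0.113 to FBS. UF-dFBS had 3.54 ± 1.29 (SD, n = 2), a ratio of 0.0229 ± 0.00928 or a level 43.7-fold lower than in FBS. On the log2 scale the differences from FBS were -0.29 for SBI-dFBS, -0.94 for UC-dFBS and -5.49 for UF-dFBS. For each of them p was 0.333 (exact permutation test, two-sided), before and after adjustment over the 3 media, which is the smallest p that 2 samples against 2 allow.

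Since each of the Sigma-Aldrich and Gibco sera was measured before and after depletion, the U2 level was also compared within a serum. Ultracentrifugation left 41.9% of U2 in the Sigma-Aldrich serum and 64.5% in the Gibco serum. Ultrafiltration left 2.56% and 1.94%, levels 39.0-fold and 51.7-fold lower than in the FBS samples of the same sera. The ratio after ultrafiltration was thus of the same order in both sera. Against the 6 FBS, SBI-dFBS and UC-dFBS samples, whose mean was 120 ± 36.1 (SD, n = 6), the mean of UF-dFBS was 33.9-fold lower. The log2 difference was -5.08 with p = 0.0714 (exact permutation test, two-sided), which cannot be lower with 2 samples against 6.

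StemPRO held 1.07% of the mean U2 level of FBS, a ratio of 0.0107 ± 0.00188 whose error comes from the FBS samples alone, or 93.4-fold less. Against the single UF-dFBS samples, its U2 level was 0.372 times that of UF-dFBS-1 and 0.632 times that of UF-dFBS-2. With 1 sample, StemPRO was not tested. The picture was another when U2 was set against all counts of a library, those of miRNAs and other small non-coding RNAs together. U2 made up 2.68% of all counts in StemPRO (Wilson 95% interval 2.32 to 3.10%), against 0.00358 to 0.167% in the 8 FBS-based samples. This share depends on how much of every other RNA a library held, and the spike-in normalized level does not.

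Within snRNA, the share of U2 differed widely between the samples of a medium. FBS-1 and FBS-2 had shares of 16.1% and 33.2% of snRNA counts, the lots of SBI-dFBS 12.2% and 5.98%, and the UC-dFBS samples 11.9% and 28.2%. UF-dFBS-1 had a share of 0.843% (Wilson 95% interval 0.744 to 0.955%) and UF-dFBS-2 one of 15.3% (12.1 to 19.0%). StemPRO had the highest share, 37.2% (33.0 to 41.6%). UF-dFBS did not differ detectably from the 6 other FBS-based samples in this share (log2 difference -2.10, exact two-sided permutation p = 0.286, smallest possible 0.0714), and the difference was -0.01 without UF-dFBS-1 and -4.18 without UF-dFBS-2. The share was higher with Gibco serum in 3 of 3 media, by 4.45-fold on geometric average, which gave the smallest p of an exact paired permutation test, 0.25. Without the UF-dFBS pair the log2 difference was 1.14, against 2.16 with it.

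The U2 level itself was close between the sera. The ratio of the Gibco to the Sigma-Aldrich sample was 0.779 for FBS, 1.20 for UC-dFBS and 0.589 for UF-dFBS. The direction thus differed between media, and the mean log2 difference was -0.29 (exact two-sided paired permutation p = 0.5, smallest possible 0.25). The lots of SBI-dFBS were 1.05-fold apart in U2.

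The other snRNA families varied more than U2, with the exception of U12. Over the 6 FBS, SBI-dFBS and UC-dFBS samples, the highest U2 level was 2.39 times the lowest. For U12, which takes the place of U2 in the minor spliceosome, this ratio was 2.10, for U11 6.58 and for U1 8.33. For U4, which keeps U6 inactive until the spliceosome is activated, it was 237. FBS-1 had 557 normalized counts of U4 and FBS-2 had 6.71, an 83.1-fold gap, where U2 differed 1.28-fold. The lots of SBI-dFBS differed 46.9-fold in U4 and 8.33-fold in U1. U4 made up 98.0% of snRNA counts in UF-dFBS-1 and 43.3% in UF-dFBS-2.

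Count ratios between families within a sample do not use the spike-ins. FBS had U2 to U12 count ratios of 2.20 and 1.93, SBI-dFBS of 2.03 and 1.06, UC-dFBS of 1.21 and 1.51, and UF-dFBS of 2.67 and 1.62. It thus stayed within a 2.53-fold range over the 8 FBS-based samples, while U2 itself spanned 2.62 to 174 normalized counts. The ratio of U2 to U1 counts ranged from 0.778 in UF-dFBS-2 to 9.37 in SBI-dFBS-2, a 12.0-fold range. For U11 the range was 60.8-fold and for U4 2349-fold. In StemPRO the ratio of U2 to U12 was 17.9 and that of U2 to U11 was 44.8, both above every FBS-based sample, but they rested on 10 counts of U12 and 4 of U11. The ratio of U2 to U1 in StemPRO, 1.43, lay within the range of the sera.

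**Figure D2:**
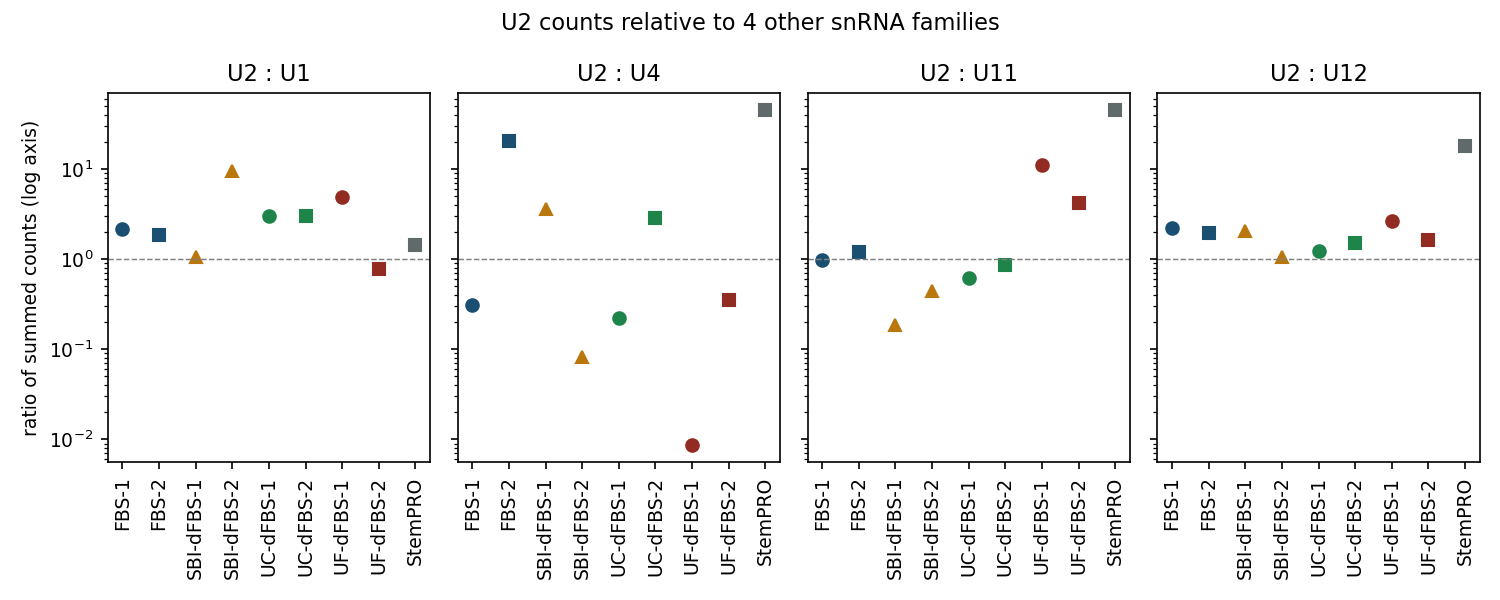
Ratio of summed U2 counts to summed U1, U4, U11 and U12 counts (log axis) in each of the 9 samples, with colours for the media, symbol shapes for the suppliers (circle Sigma-Aldrich, square Gibco or StemPRO, triangle System Biosciences) and a dashed line at equal counts. The U12 ratio stays between 1.06 and 2.67 in the 8 FBS-based samples, while the U4 ratio runs from 0.00860 to 20.2 in the same samples.

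The families also differed in what ultrafiltration left. In the Sigma-Aldrich serum, where 2.56% of U2 was left, UF-dFBS held 1.14% of the FBS level of U1, 2.11% of that of U12, 0.224% of that of U11 and 92.9% of that of U4. In the Gibco serum, with 1.94% of U2 left, the values were 4.60% for U1, 2.31% for U12, 0.546% for U11 and 111% for U4. U4 was thus close to its level in FBS with both sera, whereas U2, U1, U12 and U11 were at under 5% of theirs. StemPRO held 1.07% of the FBS level of U2 and 1.51% of that of U1, 14.0% of that of U6 and 29.8% of that of U5, the latter from 54 counts. Of the Cajal body RNAs that guide the chemical modification of U2, SCARNA4 alone had a row under one of the 5 names searched, with at most 2 counts in a sample.

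In the sera most U2 counts fell on 6 loci. U2.38 lay at chr6:89773219-89773409, U2.6 at chr14:96850961-96851152, RNU2-7P at chr13:21186300-21186477, U2.23 at chr3:127793916-127794092, U2.22 at chr5:157403774-157403964 and RNU2-6P at chr13:46948536-46948725. RNU2-7P and RNU2-6P are annotated as pseudogenes, as the P in their names states. Together these 6 loci took 83.6 to 88.6% of U2 counts in the 6 FBS, SBI-dFBS and UC-dFBS samples. UF-dFBS-1 had 32.1% of its U2 counts there (Wilson 95% interval 26.6 to 38.2%), UF-dFBS-2 had 54.0% (41.8 to 65.7%) and StemPRO 15.1% (10.6 to 21.1%). The 3 samples low in U2 thus lay below the other 6 without overlap. The 6 loci were ranked by their mean level over all 9 samples, which the sera dominate, so this contrast is a description without a test.

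U2.38 was the highest locus, with 37.4 and 25.1 normalized counts in FBS, 16.8 and 19.6 in the lots of SBI-dFBS, and 12.9 and 15.8 after ultracentrifugation. It had 0.181 and 0.167 after ultrafiltration and 0.0185 in StemPRO, the last from 2 counts. UF-dFBS was 206-fold lower than FBS in the Sigma-Aldrich serum and 151-fold lower in the Gibco serum. U2.6 had 23.3 and 20.9 in FBS, 17.6 and 21.4 in the lots of SBI-dFBS, 10.9 and 16.0 after ultracentrifugation, 0.290 and 0.333 after ultrafiltration and 0.0185 in StemPRO. RNU2-7P had 25.6 and 20.9 in FBS, 19.5 and 16.1 in the lots of SBI-dFBS, 11.5 and 13.6 after ultracentrifugation, 0.181 and 0.333 after ultrafiltration, and 0 counts in StemPRO, which allows a level of up to 0.0278. Each of these 3 loci was lower in UC-dFBS than in FBS in both samples, with no overlap, and each was lower again in UF-dFBS.

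U2.23 had 23.1 and 17.6 normalized counts in FBS, 16.6 and 16.4 in the lots of SBI-dFBS, 12.5 and 14.2 after ultracentrifugation, 0.253 and 0.250 after ultrafiltration and 0.0278 in StemPRO. U2.22 had 23.1 and 18.9 in FBS, 16.3 and 22.2 in the lots of SBI-dFBS, 9.03 and 10.3 after ultracentrifugation, 0.272 and 0.250 after ultrafiltration and 0.0463 in StemPRO. RNU2-6P had 14.7 and 14.1 in FBS, 15.6 and 15.1 in the lots of SBI-dFBS, 6.27 and 7.48 after ultracentrifugation, 0.253 and 0.0833 after ultrafiltration and 0.139 in StemPRO. Both SBI-dFBS lots lay above both FBS samples at RNU2-6P, whereas they overlapped with FBS at U2.22 and lay below it at U2.23. By group means, UF-dFBS was 71.1-fold to 90.5-fold lower than FBS at the 5 loci other than U2.38, where it was 180-fold lower.

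The next 4 loci were each under 7 normalized counts. U2.14 at chrX:91053092-91053282 had 6.40 and 3.09 in FBS, 3.65 and 2.65 in the lots of SBI-dFBS, 2.75 and 2.64 after ultracentrifugation, 0.0724 and 0 after ultrafiltration (the 0 allows a level of up to 0.125) and 0.0185 in StemPRO. U2.9 at chr7:53843829-53844017 had 4.34 and 2.41 in FBS, 1.88 and 3.71 in the lots of SBI-dFBS, 0.918 and 1.76 after ultracentrifugation, 0.0362 and 0.0833 after ultrafiltration and 0.0185 in StemPRO. At both loci SBI-dFBS overlapped with FBS. FBS had a mean of 5.04 ± 1.05 normalized counts of U2.59, SBI-dFBS of 4.14 ± 0.241, UC-dFBS of 1.86 ± 0.685 and UF-dFBS of 0.101 ± 0.0921 (SD, n = 2 each).

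U2.34, at chrX:71596829-71597019, had another order. It had 0.826 and 0.939 normalized counts in FBS, from 4 and 7 counts, but 5.86 and 3.44 in SBI-dFBS, from 53 and 13 counts. UC-dFBS had 1.22 and 0.293, and UF-dFBS and StemPRO had at most 1 count in a sample. Both lots of SBI-dFBS lay above all other samples, and their mean was 5.27-fold higher than the mean of FBS. In the edgeR fit across all loci the log2 change was 2.39 ± 1.39 (SE). The quasi-likelihood F-test gave an unadjusted p of 0.117 and an adjusted p of 0.970, so neither was under 0.05.

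RNU2-2, a functional U2 gene, was low throughout and had the smallest difference between UF-dFBS and FBS among the 11 loci that were tested. It had 2.27 and 1.88 normalized counts in FBS, 1.11 and 1.06 in the lots of SBI-dFBS, and 0.459 and 0.586 after ultracentrifugation. UF-dFBS-1 had 0.670 from 37 counts, UF-dFBS-2 had 0.167 from 4 counts, and StemPRO had 0.102 from 11 counts. UF-dFBS-1 thus lay above both UC-dFBS samples, which was the case at none of the 10 higher loci. UF-dFBS was 3.39-fold lower than FBS in the Sigma-Aldrich serum and 11.3-fold lower in the Gibco serum. RNU2-2 made up 0.630 to 1.39% of U2 counts in the 6 FBS, SBI-dFBS and UC-dFBS samples. UF-dFBS-1 had a share of 15.0% (Wilson 95% interval 11.1 to 20.0%), UF-dFBS-2 one of 6.35% (2.50 to 15.2%) and StemPRO one of 6.15% (3.47 to 10.7%).

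**Figure D3:**
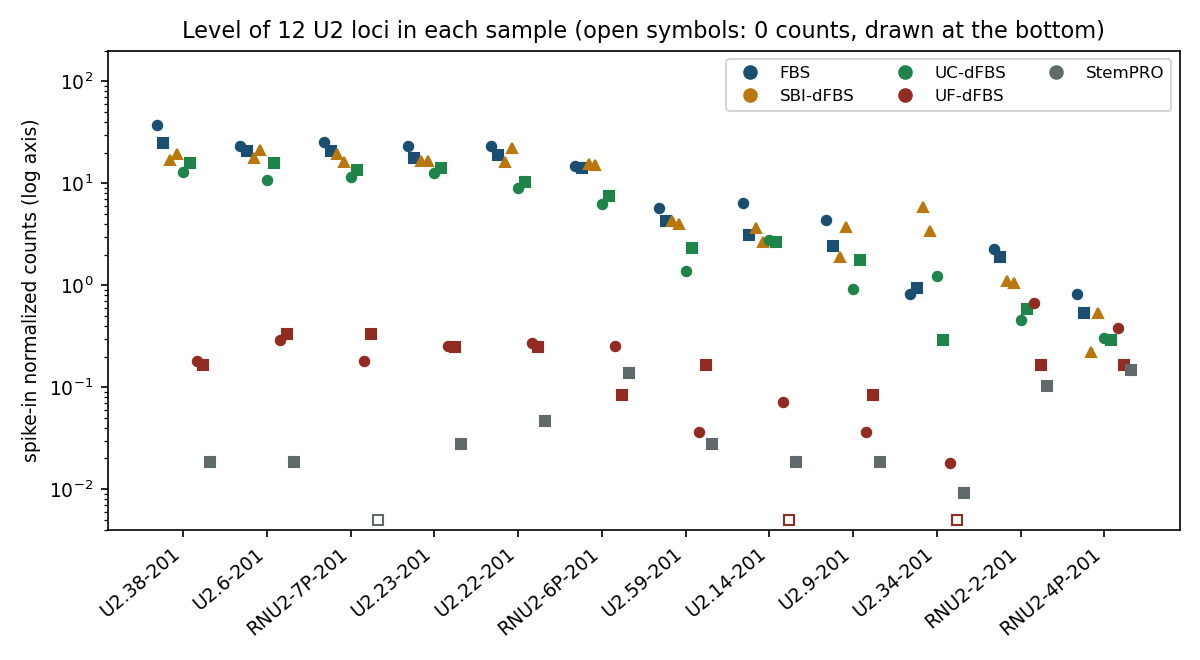
Spike-in normalized counts (log axis) of the 10 U2 loci with the highest mean, of RNU2-2 and of RNU2-4P in each of the 9 samples, with colours for the media, circles for Sigma-Aldrich serum, squares for Gibco products, triangles for System Biosciences and open symbols for 0 counts. The gap between UF-dFBS and the other sera is wide at U2.38 and narrow at RNU2-2 and RNU2-4P, and U2.34 is highest in SBI-dFBS.

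UF-dFBS and StemPRO had their U2 counts spread more evenly over the loci. The effective number of loci, which is the inverse of the summed squared shares, was 7.12 to 8.20 in the 6 FBS, SBI-dFBS and UC-dFBS samples. UF-dFBS-1 had 16.4, UF-dFBS-2 had 13.1 and StemPRO had 18.4. These 3 samples had fewer U2 counts than any other sample, and counts were seen at 34, 19 and 33 of the 48 loci in them, against 19 to 25 loci in the other 6. They also had 55.2, 24.0 and 108 counts per normalized count, against 3.78 to 9.04 in the other 6. Lower levels could thus be seen in them, and the numbers of loci seen are not comparable. The highest locus took 15.0% of U2 counts in UF-dFBS-1 (RNU2-2) and 10.1% in StemPRO (U2.25), whereas U2.38 took 21.5% in FBS-1.

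U2.25, at chr14:70827609-70827805, had 18 counts in StemPRO, 8 in UF-dFBS-1 and 0 in the 7 other samples. It was 1 of 10 loci that passed 3 counts in UF-dFBS or StemPRO and in no other sample, a list chosen by its values and given without a test. UF-dFBS-1 had 27.6% of its U2 counts at these loci, UF-dFBS-2 had 12.7% and StemPRO had 43.6%, from 68, 8 and 78 counts, whereas the other 6 samples had 0.0990 to 0.904%. RNU2-4P, named after its values had been seen, took 8.54%, 6.35% and 8.94% in these 3 samples and 0.181 to 0.475% in the other 6. Its level was 2.17-fold lower in UF-dFBS than in FBS with Sigma-Aldrich serum and 3.22-fold lower with Gibco serum. Both differences were smaller than those of RNU2-2, but each FBS sample had 4 counts there, and the locus was not tested. The highest level of the 10 loci in UF-dFBS or StemPRO, 0.272 normalized counts, was below the lowest level that a count of 0 allows in the other 6 samples, 0.332. At a single locus in a single sample, few or no counts there therefore do not show a lower level. Shares also rise where counts at the other loci fall. The 10 loci held 68 counts in UF-dFBS-1 at 55.2 counts per normalized count, 8 in UF-dFBS-2 at 24.0 and 78 in StemPRO at 108. SBI-dFBS-1 had 10 counts there at 9.04 and SBI-dFBS-2 had 4 at 3.78. Levels summed over the 10 loci thus overlapped between UF-dFBS, StemPRO and SBI-dFBS, and they were not tested. Some of the 10 loci had up to 3 counts in FBS, SBI-dFBS or UC-dFBS.

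**Figure D4:**
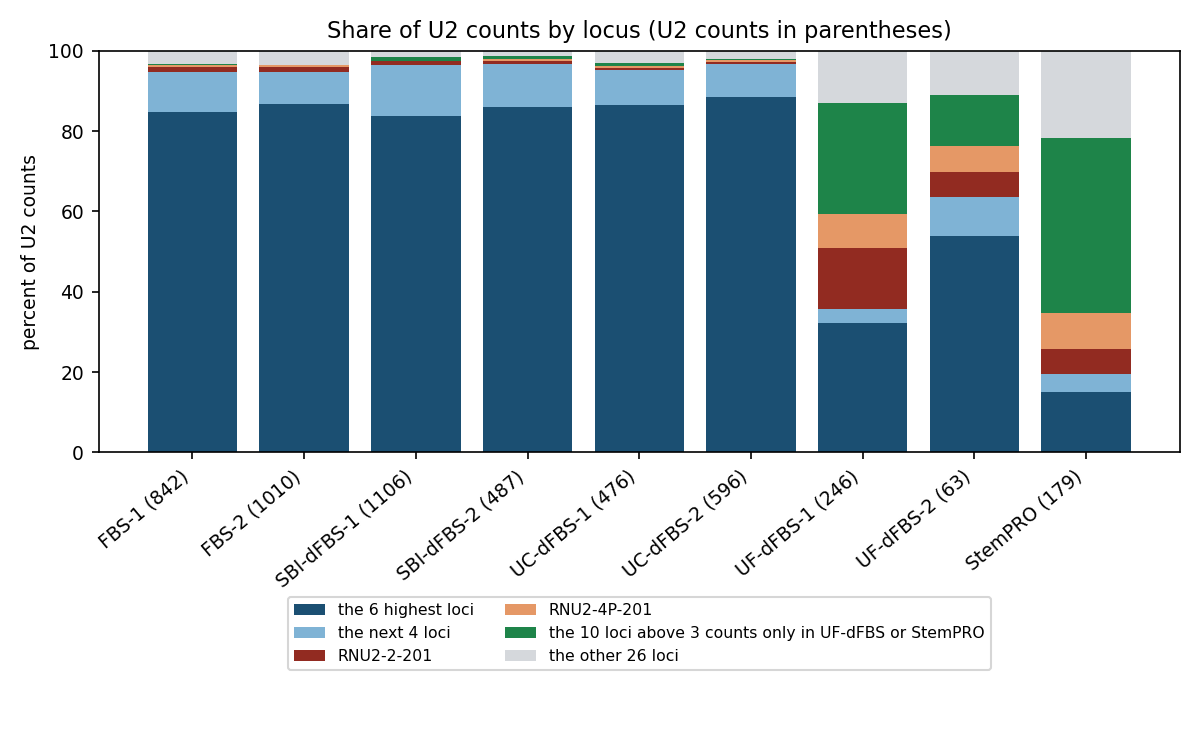
Share of U2 counts (percent, stacked bars from 0 to 100) in each of the 9 samples for the 6 highest loci, the next 4, RNU2-2, RNU2-4P, the 10 loci above 3 counts only in UF-dFBS or StemPRO, and the other 26, with the number of U2 counts in parentheses. The 6 highest loci take 83.6 to 88.6% of counts in FBS, SBI-dFBS and UC-dFBS, but 32.1% and 54.0% after ultrafiltration and 15.1% for StemPRO.

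Whether single U2 loci changed between media was tested with edgeR's quasi-likelihood F-test on all 363 loci with at least 10 counts in at least 2 of the 8 FBS-based samples, of which 11 were U2 loci. In UF-dFBS against FBS, 0 of 11 U2 loci passed the adjusted p threshold of 0.05, as did 0% of all loci tested, although 10 of the 11 had an unadjusted p under 0.05, against 29.8% of all loci. These 10 loci had log2 changes between -7.42 and -5.51 and a shared adjusted p of 0.0824 after Benjamini-Hochberg adjustment. U2.38 had -7.42 ± 1.90 (SE). RNU2-2 had -2.27 ± 1.30 (SE, adjusted p = 0.233), a direction that turned to 0.51 and 0.71 when libraries were scaled by TMM or by DESeq2's own factors instead of the spike-ins.

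Other fits gave other calls. DESeq2 with the spike-in factors called 10 of 11 U2 loci lower in UF-dFBS, against 37.2% of all loci. Without a filter on low counts, edgeR called 1 U2 locus, against 3.7% of all loci. With the serum as a replicate block in edgeR, over FBS, UC-dFBS and UF-dFBS, 10 of 10 U2 loci tested were lower, against 66.1% of 322 loci. There U2.38 had an adjusted p of 2.43e-07 and RNU2-2 one of 0.0159. The median log2 change of the U2 loci was -6.29 without the block, and that of all loci -3.63. Relative to all loci the U2 median was thus -2.66, and this difference was 0.69 without UF-dFBS-1 and lay between -5.56 and -2.17 when any other sample was left out.

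In UC-dFBS against FBS, all 11 U2 loci had a negative log2 change, between -1.97 and -0.22, but none passed the threshold, as did 0% of all loci, and none had an unadjusted p under 0.05, against 3.31% of all loci. DESeq2 with the spike-in factors called 0 of 11 and 0% of all loci, and the fit with the replicate block called 0 of 10, against 2.48% of all loci. The U2 median was -1.06 and that of all loci -0.87, and the difference of -0.20 between them became -1.87 without FBS-1, -0.91 without UC-dFBS-2, 0.36 without FBS-2 and 1.57 without UC-dFBS-1. In SBI-dFBS against FBS, 9 of 11 U2 loci had a negative and 2 a positive change, with a median of -0.28 against 1.11 for all loci. The difference between these medians, -1.39, was -3.78 without FBS-1, -0.84 without FBS-2, -1.97 without SBI-dFBS-1 and -0.13 without SBI-dFBS-2. None passed the threshold (0% of all loci) or an unadjusted p of 0.05 (1.10% of all loci) in edgeR, and DESeq2 with the spike-in factors called 0 of 11 (0% of all loci), so the U2 count did not differ from the background.

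The comparison of Gibco with Sigma-Aldrich serum, with the medium as a term and 280 loci tested, gave no U2 call where most of the table was called. Of all loci, 174 (62.1%) were called, each of them lower in Gibco serum, but 0 of 10 U2 loci were called and none had an unadjusted p under 0.05, against 69.6% of all loci. The U2 changes lay between -0.81 and 0.53 with a median of -0.08, against a median of -3.13 over all loci. Of the U4 loci, 10 of 10 were lower with a median of -5.34, and of the U1 loci 0 of 10 were called. DESeq2 with the spike-in factors called 0 of 10 U2 loci and 80.4% of all loci.

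Relative to all loci, the U2 median was 3.05 higher with the spike-in factors and 3.02 higher with TMM, which moved the median of all loci from -3.13 to 0.29. With TMM, 9 of 10 U2 loci were called higher in Gibco serum, against 21.4% of all loci, and with DESeq2's own factors 10 of 10, against 22.1%. Leaving out single samples changed the number of all loci called from 174 to between 10 and 185, the lowest without FBS-1, 74 without FBS-2 and 81 without UC-dFBS-1, but the U2 count stayed at 0.

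**Figure D5:**
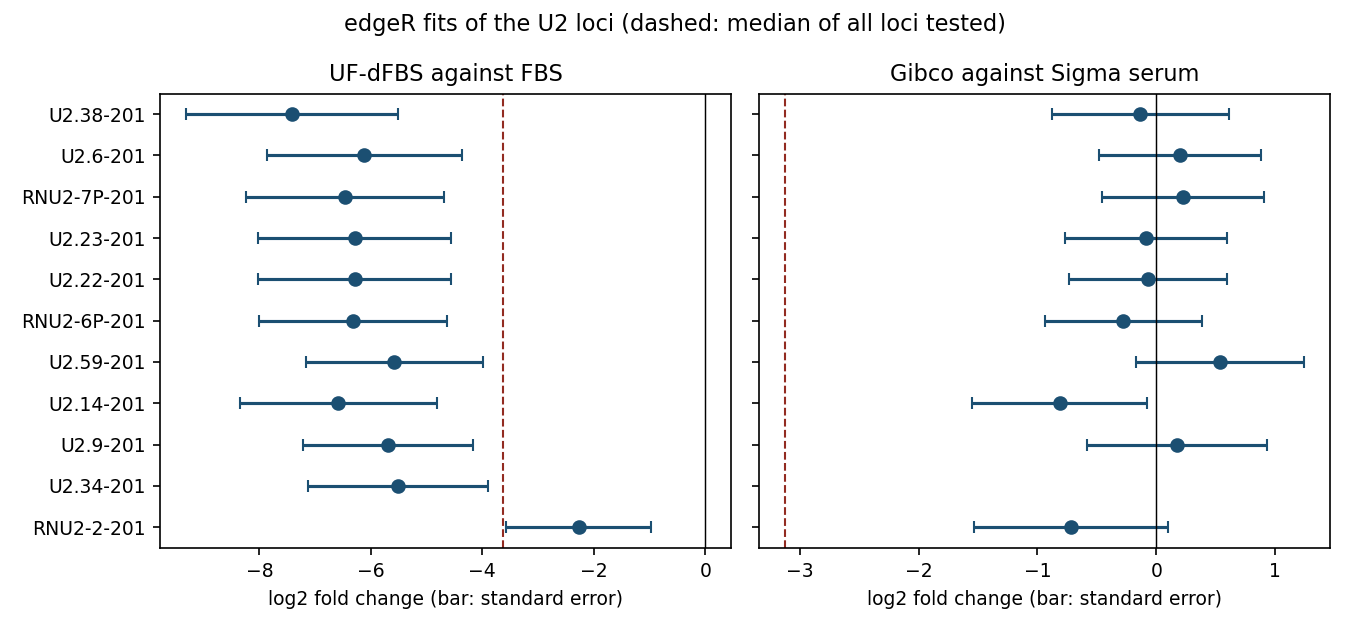
Log2 fold changes of the U2 loci tested (points, with standard errors as bars) in edgeR's fits of UF-dFBS against FBS (11 loci) and of Gibco against Sigma-Aldrich serum (10 loci), with dashed lines at the median of all loci tested, -3.63 and -3.13. In UF-dFBS all loci but RNU2-2 lie to the left of the line, and between sera all lie near 0, to the right of it.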

How the data were processed

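EVs and their RNA were isolated from the 9 media with a membrane-based kit for serum and plasma (exoRNeasy), and libraries carried unique molecular indices. Per the submitters' processing notes, cutadapt 1.11 and Bowtie2 2.2.2 were used with the human build GRCh37. The authors collapsed reads by index, removed reads matching spike-ins, adapters, ribosomal and mitochondrial RNA, mapped the rest to miRNAs and then to the genome, and deposited raw counts per locus without normalization. The second deposited table holds a signal, spike-in normalized counts, in which the authors divided counts by a factor fitted to the spike-ins. Within a sample this factor was checked to be one and the same for all loci. The placement of reads with several equally good loci and the strand setting are not given in the sources used here. The FBS-based media held bovine serum, and any bovine U2 reads could be counted at human loci only. StemPRO held no serum, and the species of the U2 reads was not tested. The spike-ins are of miRNA size. Spike-in reads were not analysed here, and miRNAs entered only total counts.

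Sums, shares, ratios, exact Poisson and Wilson 95% intervals, and exact two-sided permutation tests of log2 values were computed in python 3.11.15 (numpy 2.4.6, pandas 2.3.3, scipy 1.17.1). SDs were propagated into the errors of ratios. Loci were tested by the quasi-likelihood F-test of edgeR 4.0.16 under R 4.3.3, adjusted by Benjamini-Hochberg over all loci with a threshold of 0.05, with library sizes set to the spike-in factors, no TMM, and at least 10 counts in at least 2 samples (media) or 3 samples (sera). Standard errors were derived from the F statistic. The fits were tested on simulated data. Alternatives were DESeq2 1.42.0 with both kinds of factor, TMM, no filter, identical rows kept once, samples left out and the serum as replicate block. Figures were drawn with matplotlib 3.10.9.

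Named loci were RNU2-2, the 10 with the highest mean normalized level, those past the threshold, and the highest of StemPRO. Any other is marked. Members and lists were chosen with earlier results of these data known. Same-numbered FBS, UC-dFBS and UF-dFBS samples held serum of the same supplier. Over 280 loci, the differences between sample 1 and sample 2 (log2, pseudocount 0.1) correlated between these media (r = 0.814 for FBS with UC-dFBS, 0.640 for FBS with UF-dFBS, 0.584 for UC-dFBS with UF-dFBS). With SBI-dFBS, which was left out of the block, r lay between -0.524 and -0.355. Loci are not independent replicates.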

Additional observations from a re-analysis of the deposited data

Results flagged for a closer look

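At U2.34 the media prepared from both sera moved in opposite directions. In the Sigma-Aldrich serum, UC-dFBS was 0.40 spike-in normalized counts above FBS (8 against 4 counts), and in the Gibco serum the difference was -0.65 (2 against 7 counts). The difference between the sera was not tested, and each value rests on 8 counts or fewer.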

How the results depend on the processing

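Of the values given for the U2 loci together, 151 of 168 recomputed ones kept their call, stayed within the spread between samples where there was no test, or stayed within 1.5-fold for counts of calls. Of these, 2 changed sign, the U2 median in Gibco serum being 0.09 without FBS-1 or FBS-2. A further 15 moved and 2 tested values reversed. The permutation tests could not reach 0.05, so no value tested by them could gain or lose a call. Counted as kept is thus the UF-dFBS total, whose log2 difference from FBS of -5.49 became -1.84 as a share of all counts (miRNAs and other small non-coding RNAs). The same holds for the U2 share of snRNA in UF-dFBS against the 6 other samples, -2.10 and -0.01 without UF-dFBS-1. For single loci, 140 of 162 were kept, 20 passed the threshold under an alternative and 2 reversed. Scaling mattered most. As a share of all counts, U2 was higher in Gibco serum (log2 difference 3.23, exact permutation p = 0.25) and in StemPRO than in FBS (5.50), and U2.38, the locus highest over all samples, gave -10.69 on its own for the latter. The U2 to U1 ratio was lower in Gibco serum (-0.96, exact permutation p = 0.5). RNU2-2 in UF-dFBS turned to 0.71 with DESeq2's own factors and 0.51 with TMM. With these settings the U2 median was -2.25 and -2.23 in SBI-dFBS, -2.23 and -2.41 in UF-dFBS, and 3.06 and 3.31 in Gibco serum, with 10 and 9 U2 loci called there. Without a filter on low counts the medians were -2.23 in UF-dFBS, with 1 U2 locus called, and -0.86 in Gibco serum. In UF-dFBS, 10 U2 loci were called by DESeq2 with spike-in factors and 10 with the replicate block, and the number of all loci called was 0, or 47 without a filter, 135 by DESeq2 and 213 with the block. The block changed no call of a U2 locus in UC-dFBS. Leaving out single samples kept the U2 median between -6.34 and -6.04 in UF-dFBS, -1.24 and -0.81 in UC-dFBS, -0.49 and -0.05 in SBI-dFBS, and -0.31 and 0.09 in Gibco serum. U2.34 could not be fitted in SBI-dFBS without either of its lots, because fewer than 2 samples then had 10 counts. Keeping identical rows once changed no value of the edgeR fits, and in the sums it moved no direction and no call. The cause of these changes was not tested. In FBS, SBI-dFBS and UC-dFBS, 0 counts allow levels of at least 0.332 and up to 0.794 normalized counts, depending on the sample.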
